A study of Petunia x hybrida with 32 samples.

Results

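Expansins are small secreted proteins that let plant cell walls yield. They loosen the contacts between cellulose and the polysaccharides that coat it, without cutting them, and work best in the acid walls of growing cells. Alpha-expansins are the best known wall-loosening type in dicot leaves, and several of their genes are known for expression in expanding organs. Beta-expansins include the group 1 allergens of grass pollen, and expansin-like B proteins share the expansin fold but have no established loosening activity.

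Values are given for 3 expansin transcripts of petunia leaves under salt, out of 4767 assembled transcripts with values. The first, comp25698_c1_seq3, is described in the deposited annotation as a cell wall protein exp1 precursor and is called EXP1 here. The second, comp40589_c0_seq1, has no description in the annotation and is an expansin-like B1 by the name the study gave it. The third, comp15527_c0_seq1, is described as major pollen allergen ory s 1, which in rice is a beta-expansin, and is called the Ory s 1 type here. They were picked by name because salt moved them in opposite directions, so their salt values are given as a description, without a test. All 3 were among the 4658 transcripts that reached at least 1 RPKM in at least 3 replicates, and each did so without counting the 24 h salt leaves. Outside those leaves the expansin-like B1 reached 1 RPKM only in replicate 3 of the control leaves, at 0, 6 and 24 h. The annotation placed EXP1 and the Ory s 1 type in the extracellular region, and EXP1 also at the membrane and in cellular component organization.

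The plants were Petunia x hybrida 'Mitchell Diploid' in aerated Hoagland's solution, all of 1 genotype, at the stage of first flower initiation. Control leaves, without added NaCl, were taken at 0, 6 and 24 h, and salt leaves 6 and 24 h after NaCl was added to 150 mM. Each group had 3 biological replicates, each a pool of the most recently expanded leaf of 3 plants, so the p-values measure the spread between pools. Poly(A) RNA was sequenced from strand-specific libraries, and most replicates had 2 libraries of the same cDNA, with HPLC-purified or non-HPLC index primers, whose values were averaged. Levels are RPKM, read numbers scaled to transcript length and to the mapped reads of the library, and differences are on the log2(RPKM + 1) scale.

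Over the tested transcripts the 15 replicates had similar middles, with a median log2(RPKM + 1) of 2.08 to 2.44. The summed RPKM of the 28 libraries used differed more, from 134509 in control leaves at 0 h to 303427 in salt leaves at 6 h. At 6 h the sums were 207336 to 303427 in salt leaves and 148400 to 223217 in control leaves. At 24 h they were 152427 to 173539 and 193593 to 235898. Their part in the differences was not tested. The summed level of 7 transcripts matched to photosynthetic leaf cells was at least 1221 RPKM in every replicate. Only 6 of the 7 reached at least 1 RPKM in at least 3 replicates, so the sum does not show each of them to be high. No transcript with values matched the list for epidermis and cuticle. In these bulk leaf pools, fewer cells of a type and less RNA per cell cannot be told apart.

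EXP1 was the most abundant of the 3 before salt and went up and then far down. In control leaves at 0 h the replicates held 47.1, 52.8 and 28.0 RPKM. At 6 h the control replicates held 128, 86.5 and 49.1 RPKM, and at 24 h they held 103, 109 and 74.9 RPKM. After 6 h of NaCl the replicates held 214, 169 and 153 RPKM, every one above every control replicate of any hour. After 24 h of NaCl they held 5.55, 9.77 and 5.44 RPKM, every one below every other replicate in the experiment.

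The salt leaves at 6 h thus had a mean of 179 ± 31.5 RPKM (SD, n = 3) against 87.7 ± 39.3 RPKM in control leaves of that hour, 2.04 times as much, and a log2 difference of 1.11 (SE 0.33). At 24 h the mean was 6.92 ± 2.47 RPKM in salt leaves against 95.4 ± 18.0 RPKM in control leaves, 13.8 times less, and the log2 difference was -3.63 (SE 0.33). Between 6 and 24 h of salt the mean level dropped 25.9-fold. Only 4 of the 4658 transcripts had a lower log2 difference than EXP1 at 24 h, whereas at 6 h its difference was the 545th from the top. In rank of mean level, EXP1 went from 165th of all transcripts after 6 h of salt to 1620th after 24 h.

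The expansin-like B1 was close to silent except after 24 h of salt. It was listed at 0 in replicates 1 and 2 of control leaves at 0 and 6 h, and replicate 3 held 10.3 RPKM at 0 h and 3.47 RPKM at 6 h. The control replicates at 24 h held 0, 0.24 and 3.08 RPKM. After 6 h of NaCl they held 0.17, 0 and 0.375 RPKM, which lay within the range of the control leaves of that hour.

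After 24 h of NaCl the expansin-like B1 reached 66.5, 58.1 and 68.8 RPKM, a mean of 64.5 ± 5.63 RPKM. The lowest salt replicate at 24 h was thus above every other replicate in the experiment. The log2 difference from control leaves was -0.49 (SE 0.80) at 6 h and 5.25 (SE 0.80) at 24 h. Without control replicate 3 at 6 h the small difference at 6 h changed sign, to 0.23. At 24 h the difference was the third highest of all transcripts tested, and the mean level went from 4619th after 6 h of salt to 340th after 24 h. Libraries listed at 0 numbered 4 of 6 in control leaves at 0 h, 3 of 5 at 6 h and 3 of 6 at 24 h, and under salt 4 of 6 at 6 h and 0 of 5 at 24 h.

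The Ory s 1 type shared the late rise and differed at 6 h. Control replicates held 0, 0 and 6.23 RPKM at 0 h, then 0.215, 0.28 and 0.78 RPKM at 6 h. At 24 h they held 0.78, 1.13 and 4.03 RPKM. After 6 h of NaCl the replicates held 1.52, 1.99 and 2.99 RPKM, all low but all above the control leaves of that hour. After 24 h of NaCl they held 54.2, 64.4 and 49.6 RPKM, again above every other replicate in the experiment.

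The log2 difference of the Ory s 1 type between salt and control leaves was 1.15 (SE 0.59) at 6 h and 4.41 (SE 0.59) at 24 h. At 24 h it was the 8th highest of the transcripts tested. The mean level after 24 h of salt was 56.0 ± 7.59 RPKM, near that of the expansin-like B1 and far above that of EXP1 in the same leaves. With a pseudocount of 0.1 RPKM its difference at 6 h was 2.21 and at 24 h 5.08, and that of the expansin-like B1 at 24 h was 7.08. Many of the control values of both lay under the main pseudocount of 1 RPKM.

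Salt and control replicates did not overlap for 2 of the 3 transcripts at 6 h, where 24.1% of all tested transcripts had every salt replicate above every control replicate and 24.6% had every one below. At 24 h they did not overlap for any of the 3, and the shares of all transcripts were 30.1% above and 25.2% below. Those contrasts chose the transcripts, and nothing is read from these counts. The HPLC and non-HPLC libraries of a replicate differed by a median of 0.19 on the log2 scale for EXP1, 0.16 for the expansin-like B1 and 0.43 for the Ory s 1 type, over 13 pairs.

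**Figure D1:**
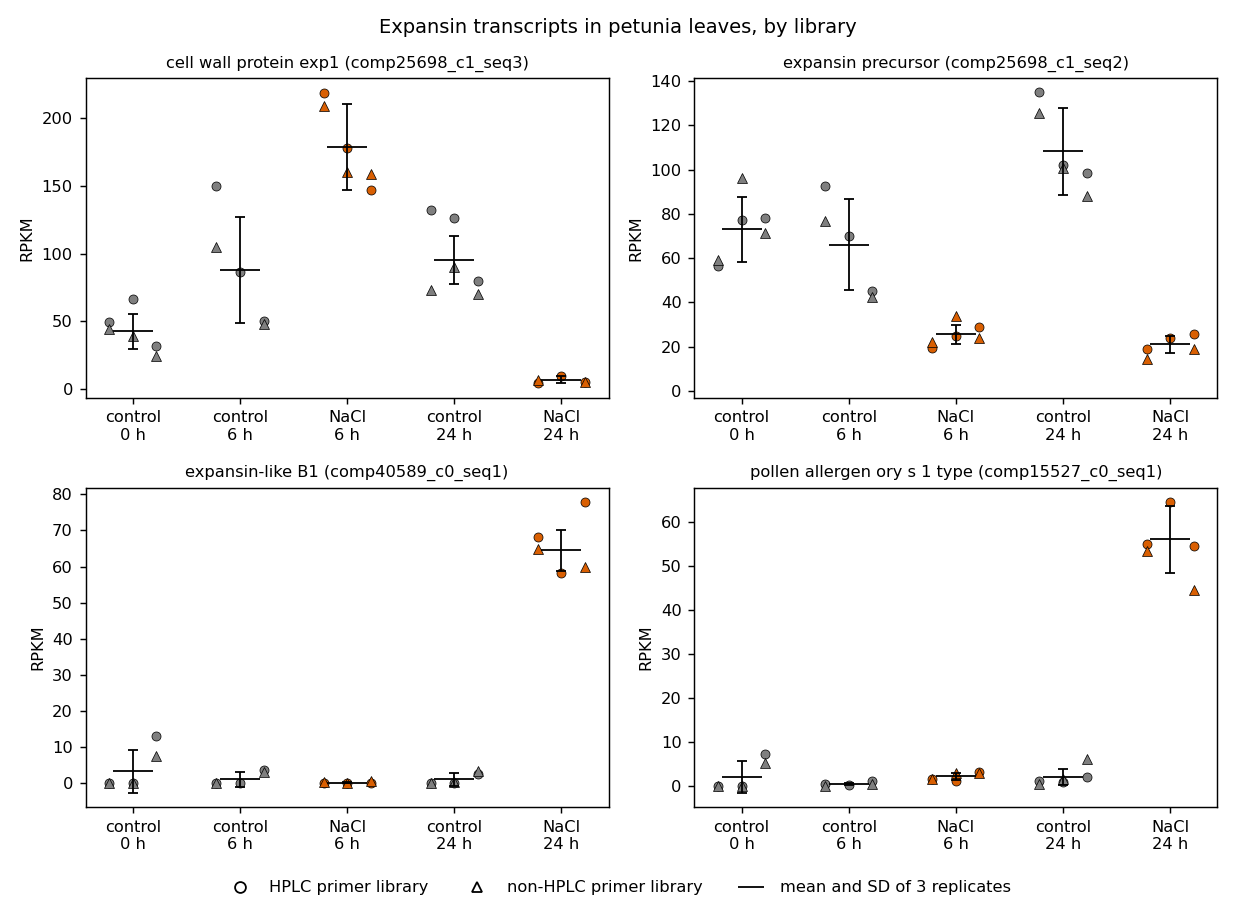
RPKM (y axis, linear, a separate scale in each panel) of EXP1, of its isoform comp25698_c1_seq2, of the expansin-like B1 and of the Ory s 1 type in each library, by group (x axis). Circles are HPLC and triangles non-HPLC libraries, offset from left to right by replicate 1, 2 and 3, and bars are the mean and SD of the 3 replicates, with EXP1 falling from a mean of 179 to 6.92 RPKM between 6 and 24 h of NaCl and the 2 lower panels near 0 until 24 h of NaCl.

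Ordered by mean level, EXP1 stood highest in salt leaves at 6 h, followed by control leaves at 24, 6 and 0 h and then salt leaves at 24 h. Control leaves at 24 and 6 h overlapped, and so did control leaves at 6 and 0 h, while the first and the last group stood clear of their neighbours. For the expansin-like B1 and the Ory s 1 type the 24 h salt leaves stood clear. The other 4 groups of the expansin-like B1 all overlapped one another, and those of the Ory s 1 type overlapped or met except for the 6 h salt leaves against the 6 h control leaves.

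The control hours ask whether the 3 transcripts changed without salt. These 3 comparisons did not choose the transcripts, although their 6 and 24 h leaves also stand in the salt comparisons. In EXP1 the control level rose by 0.97 (SE 0.33) on the log2 scale from 0 to 6 h (limma with Benjamini-Hochberg adjustment over all tested transcripts, adjusted p = 0.0214), and it was 1.17 (SE 0.33) higher at 24 h than at 0 h (adjusted p = 0.0125). In the first comparison 1 of the 3 transcripts was called, against 57.1% of all transcripts called and 29.0% called higher, and in the second 1 of 3, against 38.3% called and 16.2% called higher. Between 6 and 24 h the difference in EXP1 was 0.20 (adjusted p = 0.610, 95% interval -0.51 to 0.91), and none of the 3 transcripts was called or had an unadjusted p under 0.05, whereas 61.6% of all transcripts were called. Neither rise of EXP1 held up throughout. That at 6 h was lost with HPLC libraries only (adjusted p = 0.0760), with the 2 groups fitted alone (0.0665) and without control replicate 3 at 0 h or replicate 1 or 2 at 6 h, with the adjusted p up to 0.117. That at 24 h was lost without control replicate 3 at 0 h (0.90, adjusted p = 0.0531).

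The other 2 transcripts were not called in any comparison of control hours. For the expansin-like B1 the log2 differences were -0.44 from 0 to 6 h (95% interval -2.14 to 1.25), -0.38 from 0 to 24 h (-2.08 to 1.31) and 0.06 from 6 to 24 h (-1.63 to 1.75), with adjusted p of 0.643, 0.729 and 0.952. For the Ory s 1 type they were -0.46 (-1.72 to 0.79), 0.47 (-0.79 to 1.72) and 0.93 (-0.33 to 2.18), with adjusted p of 0.512, 0.556 and 0.184. Replicate 3 stood far above the others at 0 and 24 h. Without control replicate 3 at 0 h, the Ory s 1 type was called higher at 24 h than at 0 h (1.42, adjusted p = 0.0111) and higher at 24 h than at 6 h (adjusted p = 0.0296).

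Control replicate 3 carried nearly all of the expansin-like B1 measured without salt. It held 10.3, 3.47 and 3.08 RPKM at 0, 6 and 24 h, against at most 0.24 RPKM in replicates 1 and 2. It was also the highest of the 3 control replicates for the Ory s 1 type at each hour, and the lowest for EXP1 at each hour. Over all tested transcripts, replicate 3 was the highest at each hour in 10.2% and the lowest at each hour in 5.17%. With replicate 3 left out of the control leaves at all 3 hours, the salt differences at 24 h were -3.79 for EXP1, 5.87 for the expansin-like B1 and 4.86 for the Ory s 1 type, and at 6 h they were 0.75, 0.23 and 1.32. Each thus kept its direction apart from that of the expansin-like B1 at 6 h.

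**Figure D2:**
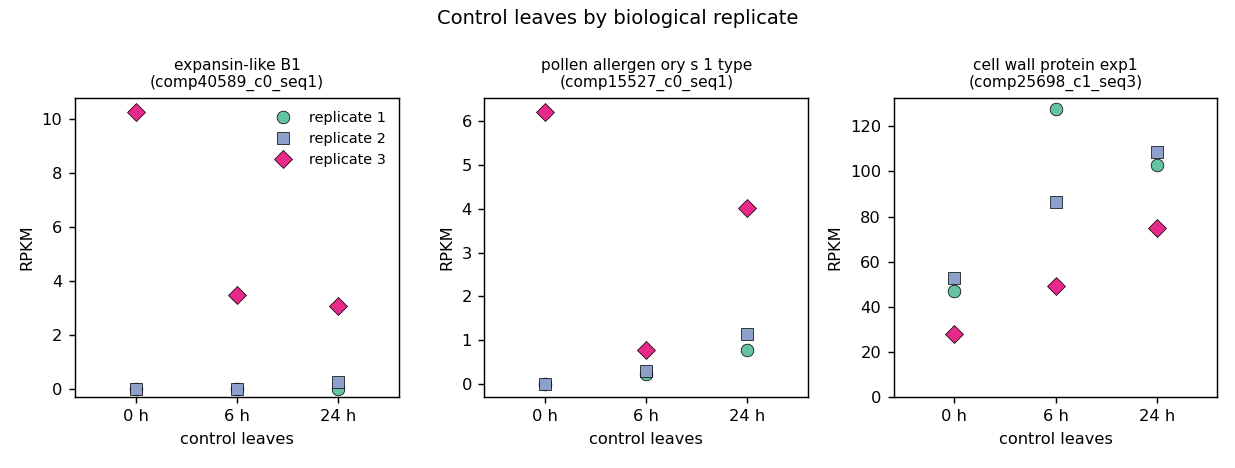
RPKM (y axis, linear, a separate scale in each panel) of the expansin-like B1, the Ory s 1 type and EXP1 in the 3 control replicates at 0, 6 and 24 h (x axis). Each symbol is 1 replicate, the mean of its libraries, and replicate 3 (diamonds) is the highest of the 3 at each hour in the first 2 panels, at 10.3 RPKM for the expansin-like B1 at 0 h, and the lowest at each hour for EXP1.

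EXP1 has a sister isoform in the same assembled component, comp25698_c1_seq2, described as an expansin precursor, which was not among the transcripts chosen. Its control replicates held 84.7, 69.9 and 43.9 RPKM at 6 h, and the salt replicates 20.9, 29.3 and 26.4 RPKM, all lower. At 24 h the control replicates held 130, 101 and 93.2 RPKM and the salt replicates 16.8, 24.1 and 22.4 RPKM, again all lower. Its log2 difference between salt and control leaves was -1.30 (SE 0.26, limma adjusted p = 0.00201) at 6 h and -2.31 (SE 0.26, adjusted p = 1.03e-05) at 24 h. The 2 isoforms thus lay on opposite sides of control at 6 h and on the same side at 24 h. Reads that fit both isoforms are divided between them by estimate, so these tests may not be independent of the values that chose EXP1.

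The share of EXP1 in the sum of both isoforms is given within each replicate, as a description. It was 45.0%, 37.9% and 27.3% in control leaves at 0 h and 60.1%, 55.3% and 52.8% at 6 h. After 6 h of salt it was 91.1%, 85.2% and 85.3%, above every other replicate. It was 44.1%, 51.7% and 44.6% in control leaves at 24 h and 24.9%, 28.8% and 19.6% in salt leaves at 24 h. The salt leaves were thus above their controls at 6 h and below them at 24 h, with no overlap at either time. The salt values that chose EXP1 enter this share, so its direction follows in part from the choice. Nothing is read from the lack of overlap.

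The 2 libraries of the same cDNA differed in this share by -12.9 to 17.4 percentage points (HPLC minus non-HPLC, 13 pairs), with the widest gap in control replicate 2 at 0 h, where it was 46.3% and 28.9%. In salt leaves at 6 h the share was 83.7% to 91.8% in HPLC libraries and 82.5% to 90.4% in non-HPLC libraries, and in control leaves of that hour no library was above 61.9%. At 24 h no library of salt leaves was above 31.7% and none of control leaves was below 36.7%. The sum of both isoforms was 180 to 235 RPKM in salt leaves at 6 h and 93.0 to 212 RPKM in their controls, so the sums overlapped where the shares did not. At 24 h the sum was 22.3 to 33.9 RPKM in salt leaves and 168 to 233 RPKM in control leaves, with no overlap. The salt values that chose EXP1 enter both the shares and the sums, so these ranges are a description. RSEM, the program that estimated these levels, divides reads that fit several isoforms by a statistical estimate, so the split between the 2 isoforms is less certain than their sum. The annotation also names an alpha-expansin 1 precursor and a further expansin precursor under this component number, which are not analysed here because the table of levels gives them no value.

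**Figure D3:**
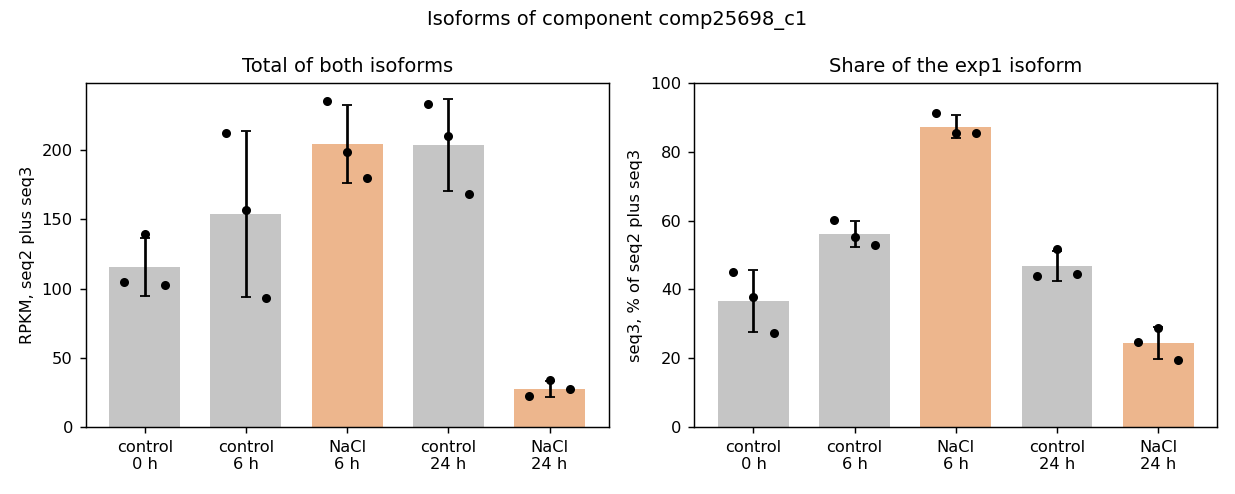
Left, RPKM of comp25698_c1_seq2 plus EXP1 (comp25698_c1_seq3), and right, EXP1 as a percent of that sum, by group. Bars are means with SD and points are the 3 replicates, and the share is highest after 6 h of NaCl (85.2% to 91.1%), where the sum of 180 to 235 RPKM overlaps that of the control leaves.

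Of 17 transcripts that the annotation describes as expansins, 4 had values, and the remaining one was an alpha-expansin 15, comp20831_c0_seq1. It was scarce, with 4.56, 6.88 and 3.73 RPKM in salt leaves at 6 h against 2.40, 2.68 and 1.94 RPKM in control leaves. At 24 h the salt replicates held 0.675, 2.28 and 0.865 RPKM and the control replicates 2.50, 1.47 and 3.35 RPKM. Neither difference was called (0.83, adjusted p = 0.0877 at 6 h and -0.62, adjusted p = 0.174 at 24 h by limma). The change in the salt effect between the hours was -1.46 (SE 0.52, adjusted p = 0.0434), and 32.3% of all transcripts were called in that interaction. The sister isoform comp25698_c1_seq2 was also called there (-1.01, SE 0.37, adjusted p = 0.0472).

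The pattern of the 3 transcripts over the 15 replicates was compared with that of every other tested transcript by Pearson's r of log2(RPKM + 1), as a description, since the replicates fall into 5 groups and share the assembly and the sequencing lane. The expansin-like B1 and the Ory s 1 type had an r of 0.947 with each other. The r of EXP1 was -0.922 with the expansin-like B1 and -0.811 with the Ory s 1 type. The salt values that chose the 3 transcripts enter these r, so their size and sign follow in part from the choice and nothing is read from them. With transcripts that were not chosen, the r of EXP1 was 0.402 for its sister isoform and 0.674 for alpha-expansin 15. By r with EXP1, the sister isoform was thus only the 1301st of all transcripts and alpha-expansin 15 the 338th.

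Most of the transcripts closest to the 3 had no description in the annotation. Closest to EXP1 was comp43383_c0_seq1 (r 0.975), with group means of 5.99 to 17.6 RPKM in control leaves and of 31.4 and 1.39 RPKM after 6 and 24 h of salt. It was followed by comp13360_c0_seq1 (0.952), comp28131_c1_seq1 (0.948), from a component that the study named for a chlorophyll a/b binding protein, comp36241_c0_seq1 (0.942) and comp26627_c0_seq1 (0.935). The lowest were comp26563_c0_seq2 (-0.933), comp20827_c0_seq1, a heat shock protein 70 (-0.932), and comp27574_c0_seq1 (-0.930). The heat shock protein 70, a chaperone, had its highest mean, 8.06 RPKM, where EXP1 had its lowest.

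Closest to the expansin-like B1 were comp27885_c0_seq2 (r 0.971), comp26811_c0_seq2 (0.964), comp17284_c0_seq1 (0.960) and a calcium lipid binding protein, comp21732_c0_seq2 (0.948), and then the Ory s 1 type. The lowest were comp36241_c0_seq1 (-0.956), which was also among the 5 closest to EXP1, comp40283_c0_seq1 (-0.953) and comp29122_c0_seq1 (-0.944). All 5 of the closest had control replicate 3 as their highest control at 0, 6 and 24 h, against 10.2% of all tested transcripts. They were picked by an r that includes these control replicates, so nothing is read from this count.

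Closest to the Ory s 1 type was comp31034_c0_seq1 (r 0.982), which the study named a low-temperature-induced protein, a type known from cold, drought and abscisic acid responses, and which held a mean of 286 RPKM after 24 h of salt and at most 8.34 RPKM in any other group. It was followed by comp10055_c0_seq1 (0.981), comp20633_c0_seq2 (0.976), comp18591_c0_seq2, described as a G-type lectin receptor-like kinase (0.973), and comp9464_c0_seq1 (0.966). Control replicate 3 was the highest control at each hour in all of these but comp18591_c0_seq2 and comp9464_c0_seq1, against 10.2% of all tested transcripts. These too were picked by an r that includes the control replicates, so nothing is read from this. The lowest were comp31560_c0_seq1 (-0.940), comp31949_c0_seq1 (-0.940) and comp32837_c0_seq1 (-0.934).

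Other cell wall transcripts were counted from 6 lists, without the 3 transcripts. Isoforms of the same component were counted separately, here and in the growth lists below. Of 36 tested, 3 rose and 6 fell under salt at 6 h, and 5 rose and 15 fell at 24 h. Over all tested transcripts 17.3% rose and 17.2% fell at 6 h, and 24.2% rose and 22.3% fell at 24 h. The median log2 difference of the 36 at 24 h was -0.52, against 0.01 over all transcripts.

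Among enzymes that act on pectin, the gel that fills the wall, 7 of 13 fell at 24 h and 1 rose. A probable pectinesterase 53, comp23056_c0_seq1, was lower under salt at 24 h (-1.09, SE 0.23, limma adjusted p = 0.00132), from 6.38, 3.73 and 4.59 RPKM to 2.26, 1.24 and 1.80 RPKM. The smallest adjusted p was that of a polygalacturonase-inhibiting protein, comp22094_c0_seq1, which restrains pectin cutting rather than performing it (-1.78, SE 0.29, adjusted p = 0.000206). Of 3 xyloglucan endotransglucosylases, enzymes that cut and rejoin xyloglucan chains, 2 fell at 24 h, both isoforms of 1 component, comp22456_c0. The third, comp17446_c0_seq1, held 13.7, 5.49 and 12.2 RPKM under salt against 135, 184 and 1.57 RPKM in control leaves and was not called (adjusted p = 0.174), and its low value was again in control replicate 3. Of 9 transcripts of wall polysaccharide synthesis 3 fell at 24 h, and the 1 wall structural protein, arabinogalactan peptide 20, fell (-1.44, adjusted p = 0.0150).

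The wall glycosidases, which trim wall sugars, went the other way in the main, with 4 of 8 higher and 1 lower at 24 h. A beta-galactosidase 8, comp11309_c0_seq1, held 76.6, 66.2 and 68.3 RPKM in salt leaves at 24 h against 13.2, 14.5 and 18.0 RPKM in control leaves (2.14, SE 0.22, limma adjusted p = 5.89e-06), and it had already risen at 6 h (0.87, adjusted p = 0.00909). The lower one was an endo-beta-glucanase precursor, comp15012_c0_seq1, an enzyme type that cuts glucan chains in the wall. It held 12.9, 15.5 and 13.6 RPKM under salt at 6 h against 12.4, 13.3 and 8.19 RPKM in control leaves, and 4.13, 5.21 and 4.20 RPKM at 24 h against 29.7, 28.1 and 19.4 RPKM. It thus fell at 24 h (-2.26, SE 0.28, adjusted p = 2.16e-05), alongside EXP1, but did not rise with it beyond the test at 6 h (0.31, adjusted p = 0.394).

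Transcripts of growth hormones moved in both directions, with 5 of 15 higher and 2 lower at 6 h, and 5 higher and 5 lower at 24 h. Gibberellin 3-oxidase, comp22210_c0_seq1, which makes the active growth-promoting gibberellins, fell at both times (-1.15, adjusted p = 0.0289 at 6 h and -2.06, adjusted p = 0.000522 at 24 h by limma). A gibberellin 20-oxidase, comp10312_c0_seq1, which acts a step before it, fell at 6 h (-1.49, adjusted p = 0.00417). Another, comp24837_c0_seq1, rose at 6 h (0.92, adjusted p = 0.0190) and 24 h (0.70, adjusted p = 0.0471). The auxin response repressor IAA29, comp9100_c0_seq1, rose at both times (1.11, adjusted p = 0.0151 and 1.43, adjusted p = 0.00205). No plasma membrane proton pump, which would acidify the wall, had values. The study's own thresholds were an FDR of 0.001 and a log2 difference of 1, used there with the program edgeR. Applied here to the limma fit, they left 1 wall or growth transcript called in place of 16 of 51 at 6 h. At 24 h they left 8 in place of 30. The share of all transcripts called at these thresholds is not given, so nothing is read from the lower counts. At an FDR of 0.05 the shares of all transcripts called were 34.5% and 46.5%.

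**Figure D4:**
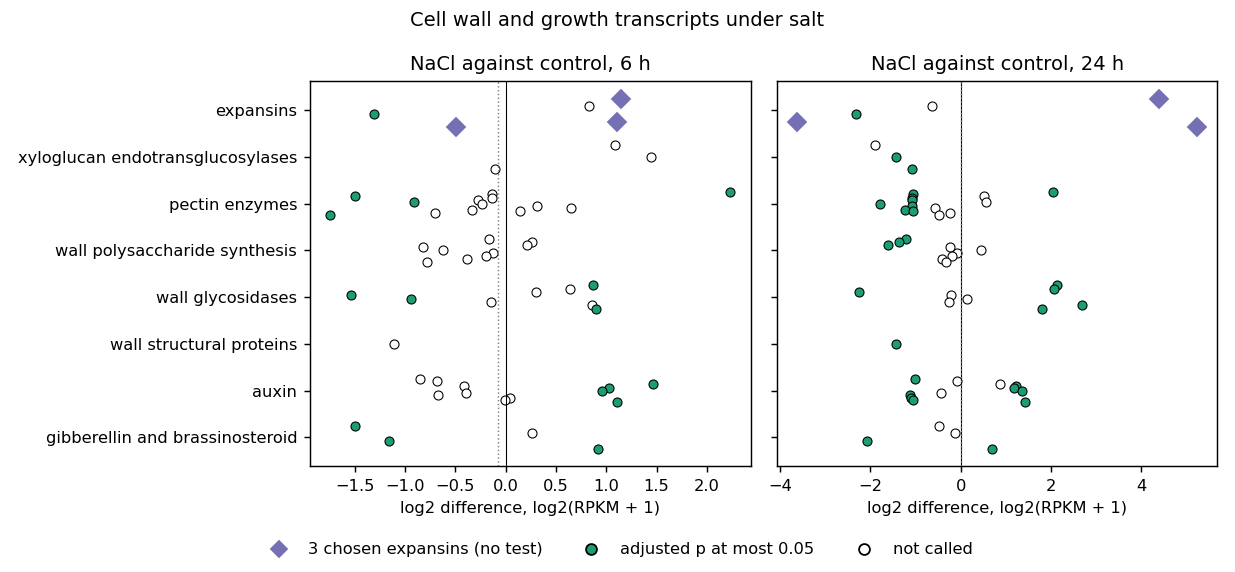
Log2 difference in log2(RPKM + 1) between NaCl and control leaves (x axis, a wider range in the right panel) at 6 h (left) and 24 h (right) for each tested transcript of the cell wall and growth lists (y axis). Diamonds in the expansin row are the 3 chosen expansins, filled circles other transcripts called by limma at an adjusted p of at most 0.05 and open circles those not called, dotted lines mark the median of all transcripts, and 15 of 36 wall transcripts fall at 24 h with EXP1 at -3.63, the expansin-like B1 at 5.25 and the Ory s 1 type at 4.41.

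Marker lists moved with the groups as well, and their part in the levels of the 3 was not tested. The photosynthetic sum was 2390 to 4184 RPKM in control leaves and 2900 to 4578 RPKM in salt leaves at 6 h, which overlapped. At 24 h it was 3559 to 4929 RPKM against 1221 to 1311 RPKM, so the sum was lower where EXP1 was lower. Of its 6 tested transcripts, 2 were called lower by limma at 24 h and 4 were not called. Over all transcripts 22.3% were called lower at that hour. The summed level of 9 transcripts of dividing cells was 39.8 to 56.1 RPKM in control leaves at 6 h and 15.4 to 21.8 RPKM in salt leaves, and 13.8 to 16.1 RPKM against 8.57 to 10.5 RPKM at 24 h. The sum was thus lower under salt at both hours, while EXP1 was higher and then lower. Of the 9, which include isoforms of the same component, 1 was called higher and 6 lower at 6 h. At 24 h 1 was called higher, 1 lower and 7 were not called. Over all transcripts 34.5% were called at 6 h and 46.5% at 24 h. The sum of 3 petal pigment transcripts, of flavonoid and anthocyanin enzymes that leaves can also use, was higher under salt at both hours. It was 17.5 to 28.8 against 9.77 to 11.1 RPKM at 6 h. At 24 h it was 44.6 to 51.5 against 27.9 to 42.6 RPKM. Of the 3, 2 were called higher at 6 h and 1 at 24 h. At 6 h the sum of 6 xylem and lignin transcripts was 59.8 to 78.6 in salt and 66.9 to 82.6 RPKM in control leaves. At 24 h it was 165 to 224 RPKM against 241 to 265 RPKM, lower in every replicate. Of the 6, 1 was called higher, 1 lower and 4 were not called at 24 h. The 10 other transcripts that the annotation ties to pollen were mostly of the SF3 type and isoforms of 2 assembled components. They summed to 99.1 to 137 RPKM after 24 h of salt and 101 to 134 RPKM in control leaves, so the sum did not rise where the Ory s 1 type did. Of the 10, 0 were called higher, 2 lower and 8 were not called at 24 h, where 22.3% of all transcripts were called lower.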

How the data were processed

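The deposited RPKM are the authors' RSEM estimates per transcript of their Trinity assembly, and tool versions and how the 4767 transcripts were chosen are not given in the sources used here. Reads behind a value are not known, so count tests were not run. Of 29 columns 28 were used, because the labels list 1 sample for replicate 2 at 24 h of salt where the table has 2 columns. Which of them it is, is not known, and the non-HPLC column was left out by choice, so that replicate rests on 1 library. Control replicate 2 at 6 h also rests on 1 library, an HPLC one, as that group has 5 columns for 6 labelled samples. The study's methods place the failed library of that group in replicate 3. Also labelled are 3 samples of salt leaves at 0 h, not analysed here. Libraries were averaged per replicate, and the 4658 transcripts with at least 1 RPKM in at least 3 replicates were fitted as log2(RPKM + 1), all 5 groups in 1 model with a variance trend (limma 3.58.1 under R 4.3.3), tested on simulated data. Calls are at an FDR of 0.05. Per the study's methods, the control plants formed fixed pools that were sampled at each hour, so replicate numbers may mark the same plants within a treatment, and 8 of 9 same-numbered pairs between control hours had positively correlated deviations from the group means (-0.20 to 0.29). The members and lists were chosen with earlier results of these data known. Named were the 3 transcripts, every other expansin or isoform with values, up to 4 list members with the smallest adjusted p, 1 per component, of which the text gives some, and the 5 highest and 3 lowest r per transcript. Lists were matched to words in the descriptions. Alternatives were another pseudocount, no filter, a replicate block, each library as a replicate, HPLC libraries only, compared groups only, stricter thresholds, median scaling, each replicate left out and, added after seeing the data, control replicate 3 left out at all hours and a block by plant pool.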

Additional observations from a re-analysis of the deposited data

Results flagged for a closer look

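EXP1 (comp25698_c1_seq3) moved in opposite directions at the 2 times, with log2 differences of 1.11 at 6 h and -3.63 at 24 h and every salt replicate on 1 side of every control replicate each time. The difference between the times was not tested, because this pattern chose the transcript. The salt effect at 24 h minus that at 6 h differed from 0 by limma for its isoform comp25698_c1_seq2 (-1.01, adjusted p = 0.0472) and for alpha-expansin 15 (-1.46, adjusted p = 0.0434). Of the 51 wall and growth transcripts tested, these included, 15 were called in this way (29.4%), 6 with a higher and 9 with a lower effect at 24 h, against 32.3% of all transcripts. By the rule for named transcripts 6 more are given. Lower at 24 h than at 6 h were the effects on the endo-beta-glucanase precursor comp15012_c0_seq1 (-2.57), the polygalacturonase-inhibiting protein comp22094_c0_seq1 (-1.55), pectinesterase 53 comp23056_c0_seq1 (-1.40), the auxin-induced protein comp7897_c0_seq1 (-1.15) and the polygalacturonase comp13683_c0_seq1 (-0.93). The effect on beta-galactosidase 8 comp11309_c0_seq1 was higher at 24 h (1.27).

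A single library stood far from the rest of its group by Dixon's criterion in 2 of 25 sets of libraries. The criterion flags about 1 in 20 sets of independent values. Most libraries here are pairs from the same cDNA, so that rate need not hold. The non-HPLC library of control replicate 3 at 24 h held 6.01 RPKM of the Ory s 1 type, and the HPLC library of salt replicate 2 at 24 h held 2.28 RPKM of alpha-expansin 15.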

How the results depend on the processing

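Depth behind a single RPKM is unknown, and 3 replicates per group limit every value. The salt differences of EXP1 and those of the other 2 transcripts at 24 h kept their direction under every alternative run. Of the 6 salt differences of the 3 transcripts, the 1 that turned was the expansin-like B1 at 6 h, and 5 of 6 signs then stood (0.23 without control replicate 3 at 6 h). The Ory s 1 type at 6 h was 0.82 with HPLC libraries only. Calls among the 3 transcripts between control hours went from 1 to 0 for 6 against 0 h with HPLC libraries only, with a fit of the 2 compared groups alone and at the study's thresholds, and for 24 against 0 h from 1 to 0 at the study's thresholds. Leaving out replicates gave 0 to 1, 1 to 2 and 0 to 1 calls for 6 against 0 h, 24 against 0 h and 24 against 6 h. Wall and growth transcripts called numbered 16 at 6 h and 30 at 24 h, 12 to 19 and 22 to 30 with a replicate left out, 12 and 20 with HPLC libraries only, and 1 and 8 at the study's thresholds, where the stricter rule itself lowers the count. At those thresholds comp25698_c1_seq2 at 6 h was not called (-1.30, adjusted p = 0.00201).

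Uncalled control differences changed sign in some settings, and the cause was not tested. With a pseudocount of 0.1 RPKM the Ory s 1 type was at 0.25 for 6 against 0 h and the expansin-like B1 at 0.021 for 24 against 0 h. The expansin-like B1 for 24 against 6 h was -0.10 with each library as a replicate and -0.12 with HPLC libraries only. With replicates left out, the ranges for 6 against 0 h, 24 against 0 h and 24 against 6 h were -1.16 to 0.72, -1.01 to 0.78 and -0.56 to 0.78 for the expansin-like B1. They were -0.94 to 0.49, -0.0092 to 1.42 and 0.47 to 1.22 for the Ory s 1 type, and 0.65 to 1.33, 0.90 to 1.35 and -0.16 to 0.52 for EXP1. With control replicate 3 left out at all hours, the Ory s 1 type was at 0.32 for 6 against 0 h and the expansin-like B1 at 0 and 0.16 for 6 and 24 against 0 h. The expansin-like B1 at 6 h of salt ranged from -0.85 to 0.23. Alpha-expansin 15 at 6 h of salt was called by limma with each library as a replicate (0.84, adjusted p = 0.0343). That setting counts libraries of the same cDNA as independent. With the libraries averaged, alpha-expansin 15 was not called (adjusted p = 0.0877).

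Scaling the replicates to the same median moved the median of all transcripts between control hours. It went from -0.08 to 0.12 for 24 against 0 h and from -0.08 to 0.18 for 24 against 6 h. With a replicate block by plant pool, added after seeing the data, the control hours gave 1, 1 and 0 calls among the 3 transcripts and no call changed. EXP1 then had an adjusted p of 0.00546 for 6 against 0 h and 0.00424 for 24 against 0 h, and the Ory s 1 type 0.0695 for 24 against 6 h. Salt and control leaves came from different plants, and their same-numbered deviations correlated at -0.23 to 0.11. With 1 replicate block across all groups the calls among the 3 were 1 for 6 against 0 h and 1 for 24 against 0 h, and those of the lists 18 and 29.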

Other observations

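The position of control replicate 3 seen in the expansins was counted in all transcripts, after its values had been seen. Replicate 3 was the highest of the 3 control replicates at 0, 6 and 24 h in 10.2% of the 4658 tested transcripts, in 20.6% of the 1129 that were higher under salt at 24 h and in 4.14% of the 1039 that were lower. It was the lowest at each hour in 5.17% of all, in 1.24% of those higher and in 13.3% of those lower. Control replicate 1 had the reverse split, being highest at each hour in 1.42% of the transcripts higher under salt and in 14.4% of those lower, and replicate 2 was highest in 1.77% and 2.89%. The 24 h control leaves also enter the salt comparison, so these shares are a description.

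The xyloglucan endotransglucosylases, as a sum of 3 transcripts, held 93.7 to 133 RPKM in control leaves at 0 h and 11.4 to 25.7 RPKM at 6 h. All 3, which include isoforms of the same component, fell between these hours without salt by limma, as did 28.1% of all tested transcripts. The sum was 5.09 to 204 RPKM in control leaves at 24 h, the widest range of these groups, and 10.2 to 15.7 RPKM after 24 h of salt. EXP1 did not follow this course, since its control level was higher at 6 h than at 0 h. The 10 pollen-described transcripts, without the Ory s 1 type, summed to 104 to 118 RPKM in control leaves at 0 h and 360 to 463 RPKM at 6 h.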
